A study of Homo sapiens with 18 samples.

Results

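The 9 genes described here encode acidic histone chaperones and prothymosins: ANP32A, ANP32B, ANP32E, SET, NAP1L1, NAP1L4, NASP, PTMA and PTMS. They were taken by gene name from a table of 13661 genes, and all 9 were among the 12720 genes that had a mean of at least 10 reads per library and reads in every gradient. Members were selected on their function and on the fraction percentages and mean ribosome loads of these same libraries. Their fraction percentages, ribosome loads and fold changes are therefore given as a description. Calls from a fit over all genes are printed for the members only to place them beside the other genes, and they support nothing about the group.

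The libraries come from HEK293, an established human embryonic kidney cell line, after 12 h in the DMSO vehicle. In polysome profiling, a cell lysate is spun through a sucrose gradient so that mRNAs separate by how many ribosomes they carry. Each of 3 biological replicates, called gradients 1, 2 and 3 below, was pooled into a monosome, a light polysome and a heavy polysome fraction, giving 9 libraries. The 9 libraries of cells given 100 µM minocycline, an antibiotic, for 12 h are not analysed here.

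Histone chaperones bind free histones, keep these basic proteins soluble, and hand them to or take them from DNA. Many do so through long stretches of aspartate and glutamate. Several proteins of this kind have other known roles, among them inhibition of protein phosphatase 2A (PP2A) by ANP32A and SET. An mRNA translated by many ribosomes at once is recovered in heavy polysomes, and a short coding sequence has room for fewer ribosomes than a long one.

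The libraries held between 13447139 and 24441159 reads. The members took 0.247% to 0.289% of the reads of the monosome libraries, 0.952% to 1.02% of the light and 0.679% to 1.06% of the heavy libraries. The lowest count of any member was 330 reads, for ANP32A in monosome library 2, where counting error alone is 5.50% of the value. The light polysome library of gradient 2 stood apart. Across genes it had a Pearson correlation of 0.899 and 0.889 with the other two light libraries, and of 0.928 to 0.953 with the 3 heavy libraries. The monosome library of gradient 2 also differed from the other monosome libraries, with 3.87% of reads from mitochondrial mRNAs against 26.0% and 19.5%, and 52.7% from ribosomal protein genes against 37.9% and 33.4%. Values without gradient 2 are therefore given beside the results. Of 8 genes fixed as reported markers of HEK293, 8 were in the table. Of 10 markers of other cell types, 3 were in the table (APOA1, COL1A1 and COL3A1), with 107, 621 and 91 reads summed over all 9 libraries.

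All 9 coding sequences are rich in the codons GAA, GAG, GAC and GAT, which encode the acidic residues glutamate and aspartate and are called acidic codons below. To show the stretches that give the group its name, the 20 codons of the coding sequence with the most acidic codons are printed for 7 of the members, 5′ to 3′ on the coding strand, with acidic codons in capitals. Each window lies in coding exons of the GENCODE 29 annotation of GRCh38. The windows of ANP32B, NAP1L4, NASP, PTMA and PTMS are spliced from 2 exons, and that of NAP1L1 from 3.
ANP32B: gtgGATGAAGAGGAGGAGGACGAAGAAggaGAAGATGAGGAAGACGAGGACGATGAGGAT
SET: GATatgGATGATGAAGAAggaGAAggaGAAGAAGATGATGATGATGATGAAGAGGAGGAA
NAP1L1: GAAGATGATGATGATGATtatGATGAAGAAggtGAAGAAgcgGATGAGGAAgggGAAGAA
NAP1L4: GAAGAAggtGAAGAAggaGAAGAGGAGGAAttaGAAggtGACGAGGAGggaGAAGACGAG
NASP: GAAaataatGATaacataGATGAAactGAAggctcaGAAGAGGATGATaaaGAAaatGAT
PTMA: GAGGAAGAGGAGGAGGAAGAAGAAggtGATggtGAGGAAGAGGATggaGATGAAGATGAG
PTMS: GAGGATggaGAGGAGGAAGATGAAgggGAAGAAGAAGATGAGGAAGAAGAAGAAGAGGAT

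The ANP32B window is chr9:98005129-98011305 on the plus strand, codons 165 to 184 of 251. The SET window is chr9:128693902-128693961 on the plus strand, codons 224 to 243 of 277. In both genes the stretch lies in the later part of the coding sequence. The NAP1L1 window is chr12:76049239-76050548 and the NAP1L4 window chr11:2951283-2951806, both on the minus strand, at codons 348 to 367 of 391 and 347 to 366 of 375. The NASP window is chr1:45606570-45613206 on the plus strand, codons 130 to 149 of 449, closer to the start than in the other chaperones printed. The prothymosin windows are chr2:231711953-231712471 (PTMA, codons 62 to 81 of 111) and chr12:6769963-6770179 (PTMS, codons 54 to 73 of 102), both on the plus strand.

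PTMA had the highest share of acidic codons of all 12688 genes with a coding sequence to compare, 48.6% of its codons, and PTMS the next, 46.1%. The share was 38.1% in ANP32E, 37.5% in ANP32B, 35.7% in ANP32A and 31.8% in SET, against 11.9% in the median gene. These 4 genes all ranked within the 12 highest. NAP1L1 (26.6%), NAP1L4 (22.1%) and NASP (22.05%) were lower, with 30, 152 and 157 genes at or above their share. Among the 7 members whose windows are printed, the longest unbroken run of acidic codons was 15 in ANP32B, 13 in PTMS, 11 in SET, 8 in PTMA, 6 in NAP1L1, 5 in NAP1L4 and 4 in NASP. These shares come from the sequence and not from the libraries.

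**Figure D1:**
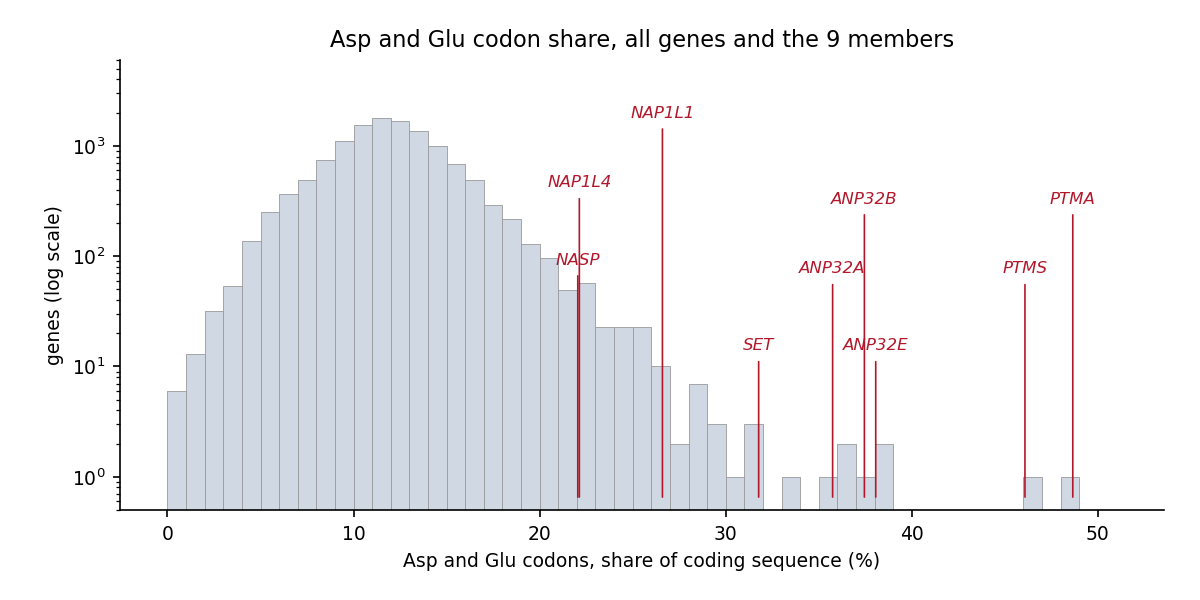
Histogram of the share of aspartate and glutamate codons (x axis, % of codons) over 12688 genes, with the number of genes on a log scale (y axis) and a line at each member. PTMA (48.6%) and PTMS (46.1%) lie at the far right, and NASP (22.05%) and NAP1L4 (22.1%) lie nearest the bulk of genes.

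Each gene's normalized counts in the 3 fractions of a gradient were expressed by the authors as percentages that sum to 100. These are relative between genes, since the scaling between fractions sets the level of the median gene, which was 31.3% monosome, 30.8% light and 33.8% heavy. Each library pools a whole culture, so fewer cells holding an mRNA and less of it per cell cannot be told apart. Counts are per gene, so isoforms are merged.

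The ANP32 members differed among themselves. ANP32A (ENSG00000140350, chr15:68778535-68820897, minus strand), a nuclear phosphoprotein that inhibits PP2A and takes part in masking histone tails from acetylation, had 86.2%, 60.9% and 85.8% of its normalized count in heavy polysomes in gradients 1, 2 and 3. Its light shares were 8.01%, 32.5% and 8.38%, and its monosome shares 5.79%, 6.58% and 5.83%. The heavy fraction held most of ANP32A in every gradient and did not overlap the other fractions, and gradient 2 had the lowest heavy and the highest light share. In normalized counts, ANP32A had 13857, 7231 and 8251 in the heavy libraries against 931, 782 and 560 in the monosome libraries.

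ANP32E (ENSG00000143401, chr1:150218417-150236156, minus strand), the chaperone that removes the histone variant H2A.Z from chromatin, had heavy shares of 80.4%, 46.1% and 73.1%. Its light shares were 11.9%, 46.6% and 13.98%, and its monosome shares 7.65%, 7.38% and 13.0%. Heavy polysomes led by a wide margin in gradients 1 and 3, while in gradient 2 the light share was the higher by a small margin. ANP32B (ENSG00000136938, chr9:97983361-98015943, plus strand), a histone-binding paralog of ANP32A, had heavy shares of 55.6%, 28.9% and 55.95%, light shares of 25.1%, 35.7% and 28.9%, and monosome shares of 19.35%, 35.4% and 15.1%. The fractions of ANP32B overlapped, because in gradient 2 its heavy share was the lowest of the 3.

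SET (ENSG00000119335, chr9:128683424-128696400, plus strand), a chaperone of the nucleosome assembly protein fold and, like ANP32A, an inhibitor of PP2A, had heavy shares of 63.2%, 31.8% and 57.9%. Its light shares were 27.5%, 49.9% and 29.9%, and its monosome shares 9.33%, 18.4% and 12.2%. As with ANP32E, light polysomes led in gradient 2 and heavy polysomes in the other gradients, and the monosome share stayed below both polysome shares in all 3.

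NAP1L1 and NAP1L4, paralogs that carry histones H2A and H2B and assemble nucleosomes, lay on opposite sides of the median gene. NAP1L1 (ENSG00000187109, chr12:76036587-76085033, minus strand) had monosome shares of 54.6%, 67.8% and 54.5%, light shares of 18.9%, 18.9% and 19.5%, and heavy shares of 26.5%, 13.3% and 26.0%. It was the one member whose monosome share was the highest of the 3 fractions, in every gradient and with no overlap. NAP1L4 (ENSG00000205531, chr11:2944431-2992377, minus strand) had heavy shares of 65.1%, 37.5% and 55.6%, light shares of 21.0%, 37.3% and 21.4%, and monosome shares of 13.9%, 25.2% and 23.1%. Heavy polysomes led for NAP1L4 in each gradient, in gradient 2 by a margin much smaller than the spread between gradients. NAP1L1 was also the more abundant, at 1644 normalized counts per kb of exon against 353 for NAP1L4.

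NASP (ENSG00000132780, chr1:45583846-45618904, plus strand), which guards the soluble pool of histones H3 and H4, had heavy shares of 50.4%, 61.6% and 53.4%, light shares of 31.3%, 18.4% and 30.2%, and monosome shares of 18.3%, 20.02% and 16.4%. Its heavy share did not overlap the others, and it was the only member with its highest ribosome load in gradient 2.

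Both prothymosins had their highest mean share in light polysomes. PTMA (ENSG00000187514, chr2:231706895-231713541, plus strand), prothymosin alpha, a small nuclear protein that binds linker histone H1, had light shares of 66.7%, 59.9% and 71.5%, heavy shares of 22.1%, 23.8% and 21.3%, and monosome shares of 11.1%, 16.3% and 7.18%. The light fraction of PTMA stood clear of both others in each gradient, and 14 of the 12720 genes had a higher mean light share. In normalized counts PTMA had 75747, 44937 and 100793 in the light libraries against 12653, 12239 and 10114 in the monosome libraries. PTMS (ENSG00000159335, chr12:6765516-6770952, plus strand), parathymosin, which also binds linker histone, had light shares of 47.4%, 50.7% and 44.9%, heavy shares of 40.5%, 31.9% and 47.7%, and monosome shares of 12.1%, 17.4% and 7.42%. Light and heavy shares of PTMS overlapped, and the heavy share was the higher in gradient 3.

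**Figure D2:**
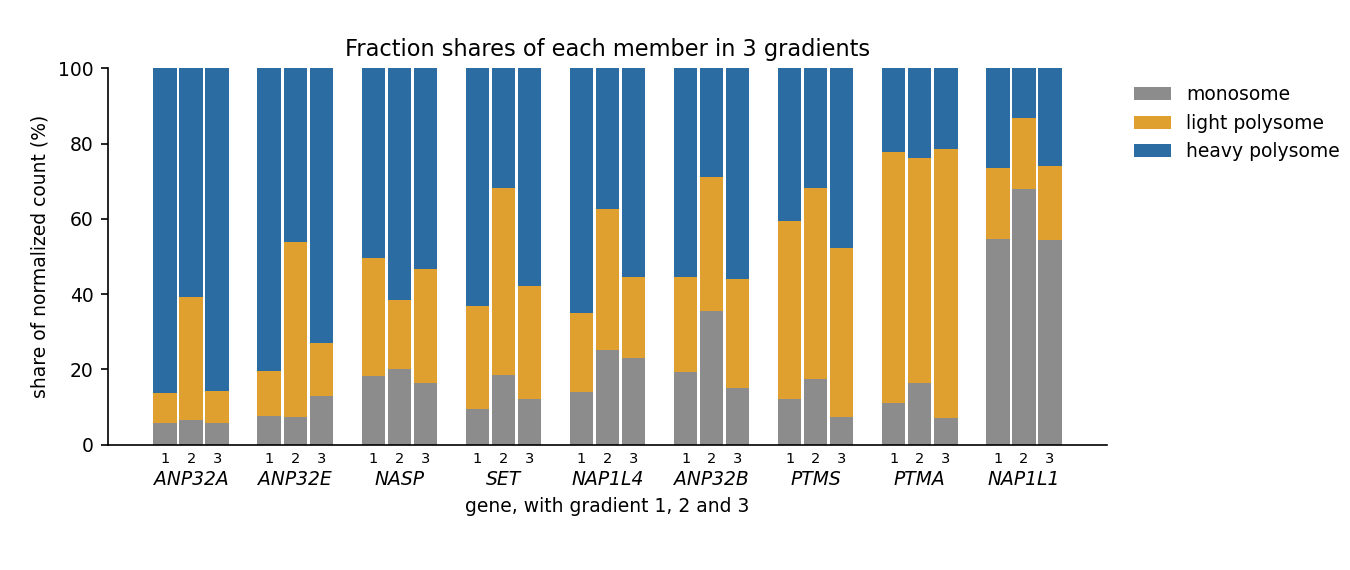
Stacked bars of the share of normalized count (y axis, %) in monosomes, light and heavy polysomes for each member in gradients 1, 2 and 3 (x axis). NAP1L1 is mostly monosome (54.6%, 67.8% and 54.5%), PTMA mostly light (66.7%, 59.9% and 71.5%) and ANP32A mostly heavy (86.2%, 60.9% and 85.8%).

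The authors' deposited table also names a class for each gene. It gives heavy polysome for ANP32A, NAP1L4 and NASP, light polysome for PTMA, monosome for NAP1L1, and a mixed or unassigned class for ANP32B, ANP32E, SET and PTMS. In each of those last 4 genes, the leading fraction of 1 gradient differed from that of the other two. Over the whole table, 12.1% of genes were heavy, 3.67% light, 11.3% monosome and 72.9% mixed.

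The percentages were also summarised by the authors as a mean ribosome load (MRL), a score on which a transcript wholly in monosomes has 1, wholly in light polysomes 2.5 and wholly in heavy polysomes 6. The median gene had an MRL of 3.21. Loads were 5.43, 4.53 and 5.42 for ANP32A and 5.20, 4.001 and 4.86 for ANP32E in gradients 1 to 3. ANP32A ranked 5 and ANP32E 135 of 12720 genes by mean load. NASP had 3.99, 4.35 and 4.12. SET had 4.57, 3.34 and 4.34. NAP1L4 had 4.57, 3.43 and 4.10. These 3 genes lay above the median gene in every gradient, with means of 4.16 ± 0.18 for NASP, 4.08 ± 0.66 for SET and 4.03 ± 0.57 for NAP1L4 (SD, n = 3).

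ANP32B had loads of 4.15, 2.98 and 4.23, above the median gene in gradients 1 and 3 and below it in gradient 2. PTMS had 3.74, 3.36 and 4.06. PTMA had 3.11, 3.09 and 3.14, a mean of 3.11 ± 0.03 (SD, n = 3), which was the narrowest spread of the 9. A load near the median gene does not mean a like distribution: PTMA reached it with most of its mRNA in the middle fraction and little in either of the others. NAP1L1 had 2.61, 1.95 and 2.59 and ranked 10505. Gradient 2 gave the lowest load for 8 of the 9 members, all but NASP, while the median gene was at 3.17, 3.17 and 3.16 in the 3 gradients. Without gradient 2 the mean rose to 5.42 for ANP32A, 5.03 for ANP32E, 4.46 for SET, 4.33 for NAP1L4, 4.19 for ANP32B, 3.896 for PTMS, 3.12 for PTMA and 2.60 for NAP1L1, and fell to 4.06 for NASP. The part of the light and monosome libraries of gradient 2 in these differences was not tested.

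**Figure D3:**
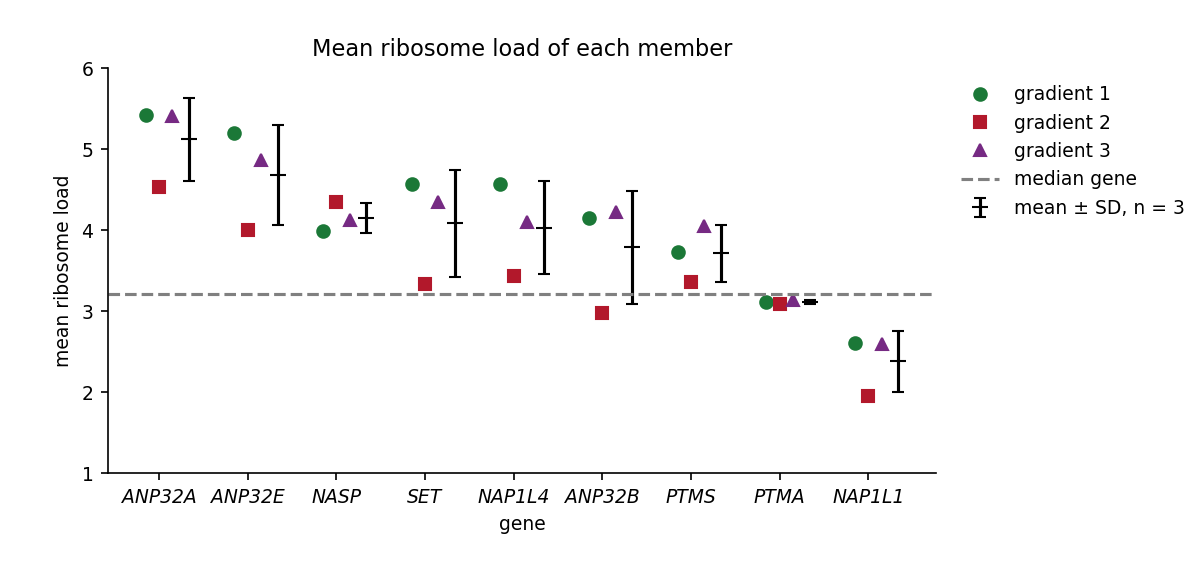
Mean ribosome load (y axis) of each member (x axis) in gradients 1, 2 and 3, with the mean and SD of 3 gradients and the median gene at 3.21 as a dashed line. Gradient 2 is the lowest point for 8 of 9 members, and NAP1L1 (1.95 to 2.61) lies below the line in every gradient.

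Differences between paralogs were compared inside each gradient. ANP32A exceeded ANP32B by an MRL of 1.28, 1.55 and 1.18 in gradients 1 to 3, a mean of 1.34 ± 0.19 (SD, n = 3), and in heavy share by 30.6, 32.0 and 29.8 percentage points. ANP32E exceeded ANP32B by 0.90 ± 0.23 and lay 0.44 ± 0.18 below ANP32A. The order of ANP32A, ANP32E and ANP32B was thus the same in all 3 gradients, although each of them shifted in gradient 2. NAP1L4 exceeded NAP1L1 by 1.96, 1.49 and 1.50, a mean of 1.65 ± 0.27, and its monosome share was lower by 40.8, 42.7 and 31.4 percentage points. PTMS exceeded PTMA by 0.63, 0.27 and 0.92. In these pairs the sign was the same in each gradient, and the smallest single difference was 0.23, between ANP32A and ANP32E in gradient 1. Ordered by mean load, NASP, SET and NAP1L4 followed one another with differences smaller than their SDs, and so did ANP32B and PTMS.

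Coding length differed among members from 306 nt in PTMS to 1347 nt in NASP, so each was set beside genes of like length, as a description. Among 1744 genes with 601 to 900 nt, whose median MRL was 3.08, 1 gene lay above ANP32A (747 nt) and 28 above ANP32E (804 nt). SET (831 nt) had 216 genes above it there, and ANP32B (753 nt) 386. Thus 4 proteins of nearly one length spanned from near the top of their class to just above the middle 50% of it, which ended at 3.70. Among 1334 genes of 301 to 600 nt the median MRL was 2.56, and both PTMS (306 nt, with 89 genes above) and PTMA (333 nt, with 296 above) exceeded it. In that length class 4 genes had a higher light share than PTMA, whose class median was 38.5%. NAP1L4 (1125 nt) and NAP1L1 (1173 nt) share a class of 1863 genes with a median of 3.25, in which NAP1L4 lay at the percentile 80.7 and NAP1L1 at 16.4. NASP (1347 nt) had 416 of 3010 genes above it, with a class median of 3.33. The coding length of NASP is that of 1 of its isoforms.

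**Figure D4:**
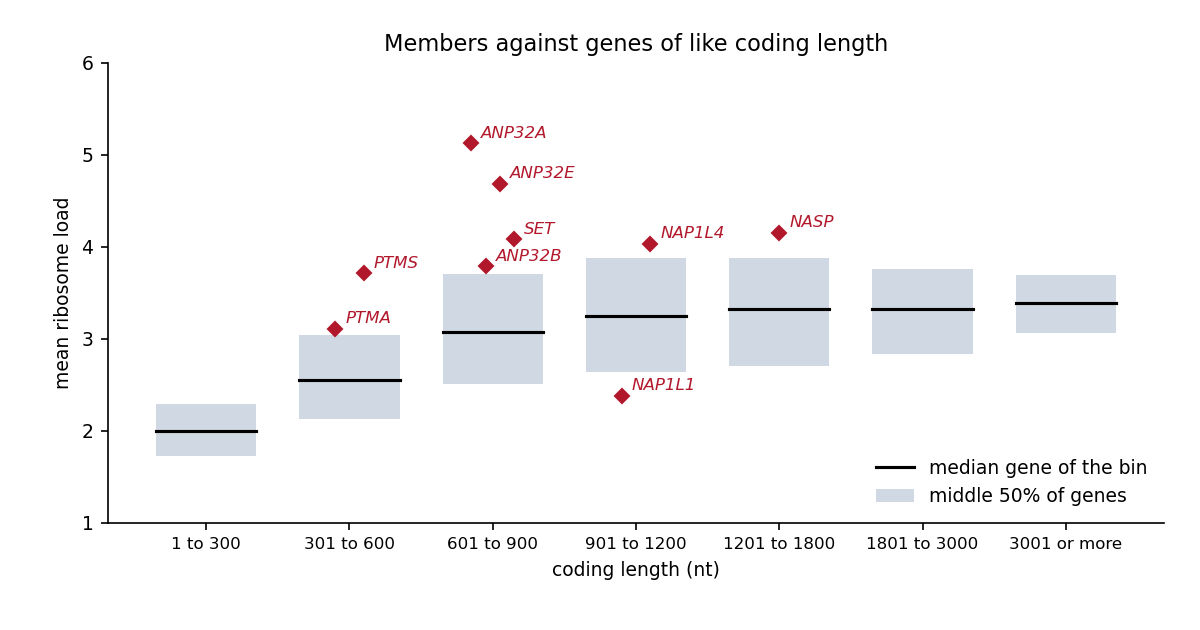
Mean ribosome load (y axis, mean of 3 gradients) of the members, as diamonds, by class of coding length (x axis, nt), with the median and middle 50% of genes in each class as bars. NAP1L1 (2.38) is the only diamond below its class median (3.25), and ANP32A (5.13) is farthest above its own (3.08).

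Fraction differences were fitted with limma on log2(normalized count + 1) over all 12720 genes, with calls at a Benjamini-Hochberg adjusted p of 0.05. Of the 9 members, 6 were called higher in heavy polysomes than in monosomes (ANP32A, ANP32E, SET, PTMS, NASP and NAP1L4), 1 lower (NAP1L1), and ANP32B and PTMA were not called. Of all genes, 49.1% were called, 24.7% higher and 24.4% lower. Nothing is read from the members' counts in this or the other 3 comparisons, because their values were known when the members were chosen. The median log2 difference was 1.59 over the members and 0.13 over all genes. When libraries were scaled to their totals instead, the median gene moved to 1.39, and the share of calls that were higher went from 50.4% to 87.5%; NAP1L1 stayed below the median gene, at -0.20. Leaving out replicate 1 or 3 left 3 members called higher and 0 lower. Of all genes, 1271 were then called higher and 1866 lower without replicate 1, and 1752 and 2196 without replicate 3. At an unadjusted limma p under 0.05 there were 4945 and 5433 genes. Leaving out replicate 2 gave 8 members called higher and 1 lower, with 3996 and 3818 of all genes. DESeq2 on the recovered reads, and scaling to library totals, also called 8 members higher, with ANP32B and PTMA added in both. Of all genes, DESeq2 called 3166 higher, and scaling to library totals 7734.

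ANP32A had the largest of these member differences, 3.66 (SE 0.51) on the log2 scale, from 3.89, 3.21 and 3.88 in the single gradients, and ranked 11 of all genes. ANP32E followed at 2.84 (SE 0.53), SET at 1.93 (SE 0.48) and PTMS at 1.77 (SE 0.40). NASP stood at 1.59 (SE 0.34) and NAP1L4 at 1.36 (SE 0.39). For NAP1L1 the difference was -1.49 (SE 0.52). ANP32B, at 1.04 (SE 0.49), had 1.52, -0.29 and 1.89 in the single gradients, so its direction was not the same in all 3, and PTMA was at 1.03 (SE 0.52).

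Light polysomes against monosomes called 2 members higher, PTMA at 2.59 (SE 0.52) and PTMS at 2.04 (SE 0.40), and 1 lower, NAP1L1 at -1.62 (SE 0.52). Over all genes, 18.7% were called, 8.47% higher and 10.2% lower. PTMA ranked 24 and PTMS 134 of 12720 genes in this difference, and the lowest single value of either was 1.54, for PTMS in gradient 2. Light-over-monosome values of the other 6 members were all above 0, from 0.35 for NAP1L4 to 1.43 for SET. The members' median was 1.10, and that of all genes 0.04. With library totals as the scale the median gene moved to 1.22, the share of calls that were higher went from 45.3% to 95.3%, and 8 members were called higher. DESeq2 on the recovered reads called 5 members higher (PTMA, PTMS, ANP32A, ANP32E and SET), with 1334 of 12716 genes higher and 1618 lower. With limma, no member was called when replicate 1 or 3 was left out. Of all genes, 149 were then called higher and 413 lower without replicate 1, and 247 and 689 without replicate 3. At an unadjusted limma p under 0.05 there were 2588 and 2755 genes. Without replicate 2, 4 members were called higher, with 2202 of all genes.

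In heavy against light polysomes, the fit called 3 members higher in heavy polysomes, ANP32A at 2.56 (SE 0.51), ANP32E at 1.71 (SE 0.53) and NASP at 1.08 (SE 0.34), and 1 lower, PTMA at -1.56 (SE 0.52). Over all genes, 32.2% were called, 14.7% higher and 17.5% lower. PTMA was lower in heavy than in light polysomes in each gradient, by -1.59, -1.34 and -1.75, and ANP32A was higher in each, by 3.43, 0.90 and 3.36. ANP32E had 2.75, -0.02 and 2.39, close to 0 in gradient 2. NAP1L4 (1.00, SE 0.39), ANP32B (0.60), SET (0.50), NAP1L1 (0.13) and PTMS (-0.27) were not called. The members' median was 0.60, against 0.05 over all genes. These calls changed with the replicate left out, and the reason was not tested. Without replicate 1 limma called 0 of all genes (2490 at an unadjusted p under 0.05), and without replicate 3 it called 1 (3100). Without replicate 2 it called 6 members higher and 1 lower, with 3806 and 3845 of all genes.

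Relative to the median gene of each gradient, log2 MRL was called higher for 5 members and lower for 1. ANP32A stood at 0.69 (SE 0.08), ANP32E at 0.56, NASP at 0.39, SET at 0.35 and NAP1L4 at 0.34, and NAP1L1 at -0.42 (SE 0.11). Over all genes, 46.7% were called, 22% higher and 24.7% lower. ANP32B (0.24), PTMS (0.23) and PTMA (-0.03) were not called. The sign for PTMA turned to 0.033 with centring on the mean gene. Where the combined light and heavy share replaced the load, PTMA stood at 0.19, a difference in share and not in log2. With that share, 7 members were called higher, PTMA and PTMS among them, and 2467 of all genes. For the load itself, leaving out replicate 1 or 3 left 3 members higher, with 1258 and 1838 of all genes higher. Leaving out replicate 2 gave 7 members, with 3698 of all genes.

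The start of an mRNA was looked at because a run of pyrimidines that begins with a C, as in terminal oligopyrimidine mRNAs, is known to link an mRNA to growth signals. RefSeq starts on GRCh38.p14 were matched for 7 of the 9 members. The first 15 bases are printed for the 4 of them that begin with such a run, 5′ to 3′, with the run in capitals.
NAP1L1: CTTTTTTagcgccat
ANP32B: CTTTTCCCTCCatgg
PTMA: CCCCCactggctgct
NASP: CTCTaatctgccatt

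NAP1L1 (chr12:76084671-76084685, minus strand) begins with a run of 7 bases, ANP32B (chr9:97983341-97983355, plus strand) with 11, PTMA (chr2:231708525-231708539, plus strand) with 5 and NASP (chr1:45584041-45584055, plus strand) with 4. SET, NAP1L4 and ANP32A do not begin with a C. A run of at least 5 bases from a C was found at 557 (5.37%) of 10366 kept genes with a RefSeq start. Those 557 genes had a median MRL of 2.88 ± 0.06 against 3.19 ± 0.02 for the other 9809 (SD of the gradient medians, n = 3). NAP1L1, with the lowest load of the 9, PTMA and ANP32B all carry such a run, with mean loads of 2.38, 3.11 and 3.79. The load of ANP32B was above the median gene in gradients 1 and 3 and below it in gradient 2. The 2 medians were not matched for coding length, and a part of the run in any load was not tested. A match to these letters is a description of 1 annotated start and not of the ends used in these cells.

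Members were not close to one another in their 9 percentages. The root mean square difference was smallest between ANP32B and NAP1L4, 6.97 percentage points, and largest between ANP32A and NAP1L1, 45.1. ANP32A and ANP32E were 8.91 points apart. For each member, the nearest non-members were sought among 10016 genes with a mean normalized count of at least 100. NUDC (1.70 points) and IGFBPL1 (1.74) were nearest to ANP32A, YWHAB (1.56) and UNG (2.00) to ANP32E, and CLTA (2.18) and ADK (2.21) to ANP32B. FLOT2 (2.34) and HDGF (2.44) were nearest to SET, ZNF444 (1.37) and LEF1 (1.95) to NAP1L4, and FBXL6 (3.08) to NAP1L1. MAGI3 and TCP1 (both 2.87) were nearest to NASP, USF3 (2.40) and KMT2A (3.29) to PTMA, and RAB12 (2.85) and MPZL1 (3.55) to PTMS. All of these nearest genes were closer to their member than any other member was.

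Related genes were counted by their MRL against the median gene, where 22% of all genes were called higher and 24.7% lower. Of 31 other histone chaperones, 10 were called higher, 2 lower and 19 not, and their median MRL was 3.63 ± 0.25 (SD of gradient medians, n = 3). ASF1B, which carries histones H3 and H4 (MRL 4.74 ± 0.56), and RBBP7, a histone-binding subunit of several chromatin complexes (4.50 ± 0.38), were the highest of the list. TONSL (2.25 ± 0.32), which binds newly made histone H4, and SPTY2D1 (2.38 ± 0.83), a chaperone of H3 and H4, were the lowest. Of 12 relatives of the ANP32, SET and NAP1L families, 6 were kept, of which 0 were called higher by limma and 2 lower. TSPYL4 (1.78 ± 0.24) and NAP1L2 (2.56 ± 0.17, at a mean of 10.2 reads) were those 2. SETSIP, a copy of SET with a mean of 15.9 reads, had 3.97 ± 0.83, and reads of such near-identical copies cannot be assigned with certainty. At an adjusted p of 0.0607 by limma, SETSIP was not called.

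Among 10 kept HMG proteins, chromatin proteins of which many have acidic tails, 3 were called higher and 3 lower. HMGN5 (4.95 ± 0.77), a nucleosome-binding protein with a long acidic tail, and HMGB2 (4.74 ± 0.49) were the highest, and HMGN3 (1.68 ± 0.14) and HMGA1 (2.18 ± 0.36) the lowest. Of 11 histone variants and linker histones, clients of the chaperones, 3 were called higher and 3 lower. H2AZ2, one of the genes for the H2A.Z histone that ANP32E removes, had an MRL of 2.34 ± 0.06, and CENPA, the centromeric H3, 2.29 ± 0.10. The linker histone H1-10 had 4.49 ± 0.31 and MACROH2A2, a large H2A variant, 4.50 ± 0.57. Of 23 PP2A subunits and inhibitors, 10 were called higher and 4 lower. PPME1, the PP2A methylesterase, had 4.80 ± 0.27 and the catalytic subunit PPP2CA 4.68 ± 0.31, while the inhibitor ARPP19 had 1.80 ± 0.22 and the PP2A-binding IGBP1 2.27 ± 0.56. Of 20 genes of H2A.Z exchange, 8 were called higher and 5 lower, with RUVBL1 (4.84 ± 0.43) and MORF4L1 (4.30 ± 0.50) the highest and EPC2 (1.90 ± 0.10) and MRGBP (2.09 ± 0.31) the lowest. Without replicate 2, 3698 of all 12720 genes were called higher and 3566 lower. In that fit the other histone chaperones had 12 called higher and 4 lower, and the HMG proteins 4 and 5.

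**Figure D5:**
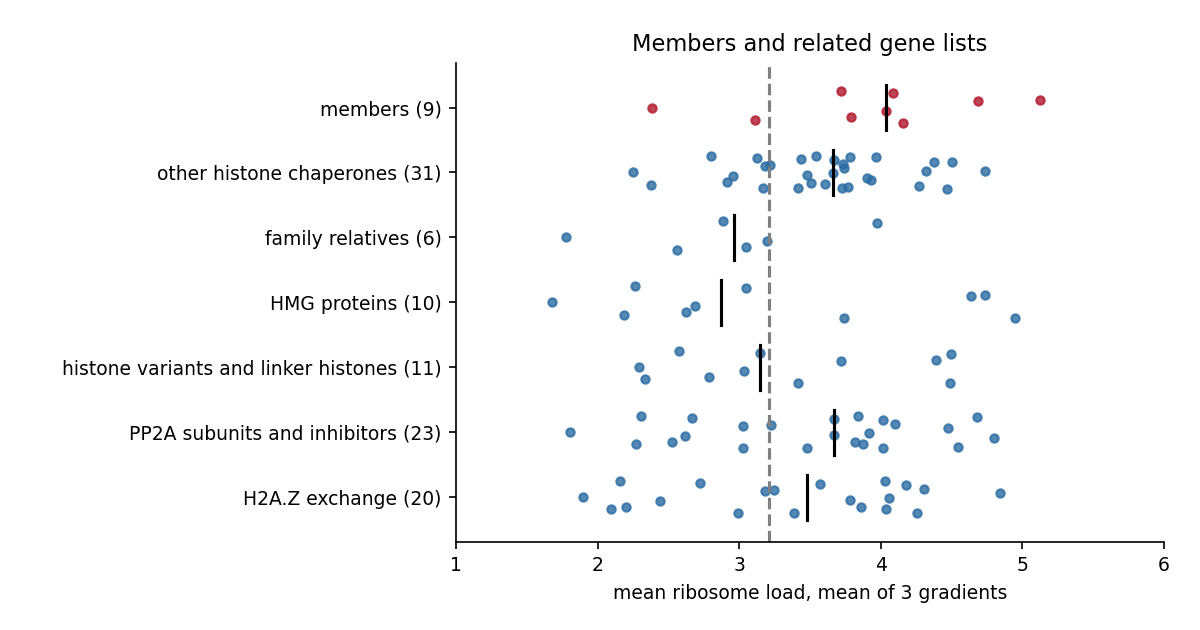
Mean ribosome load (x axis, mean of 3 gradients) of each kept gene, as a point, for the members and the related lists (y axis, number of genes in brackets). Black bars mark the median of each list and the dashed line the median gene at 3.21. The members range from NAP1L1 (2.38) to ANP32A (5.13), and each list with 10 or more genes has points on both sides of the line.

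Several members have processed copies or overlapping genes that bear on their counts. GENCODE 29 lists 19 pseudogenes named for SET, 7 for PTMA, 3 each for ANP32B, NAP1L1 and NAP1L4 and 1 for ANP32A, of which 0 were rows of the table, so how reads shared with them were counted is not known. Exons of NAP1L1 and NAP1L4 overlap an antisense gene each, and whether counting used the strand is not given in the sources used here.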

How the data were processed

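The deposited table holds, per gene and library, normalized counts deposited by the authors, a signal whose values are whole read counts divided by 1 factor per library. It also holds the percent of each gene's normalized count in each fraction and a mean ribosome load score, both deposited by the authors, and weights of 1, 2.5 and 6 gave the same loads on recomputation. Per the submitters' processing notes, featureCounts and GRCh38 were used, with the aligner and strand setting not given in the sources used here. Reads were sequenced single-end at 75 nt, and spike-in RNA was added per the labels but not used here. Reads per gene were recovered from the smallest nonzero increment of each library, with 100% of values whole within 0.01 in all 9, and depths are sums of those reads.

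Genes with a mean under 10 reads, or without reads in a gradient, were dropped (941). limma 3.58.1 (R 4.3.3) was fitted to log2(normalized count + 1) with fraction as the only term, and to log2 MRL minus the gradient's median gene. Calls used a Benjamini-Hochberg adjusted p of 0.05. The scripts were tested on simulated data. edgeR 4.0.16 and DESeq2 1.42.0 on the recovered reads, library-total scaling, other pseudocounts and weights, no filter, a replicate block and leaving out each replicate were alternatives. Replicate numbers pair the fractions, since the labels describe biological replicates split into fractions and give the number as batch, although deviations of same-numbered libraries correlated from -0.54 to 0.39. The members and lists were chosen with earlier results of these data known. All 9 members, the 2 highest and 2 lowest genes of each list by mean MRL, and the 3 genes nearest each member were eligible to be named. Coding sequences and gene positions are from GENCODE 29, matched by gene identifier for 13658 of 13661 genes. The coding windows of 2 members and 1 gene near a member are not reported here.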

Additional observations from a re-analysis of the deposited data

How the results depend on the processing

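Of 342 values of single members under the alternatives, 338 kept their direction. Part of these could not turn, so the count does not measure robustness. In the fraction comparisons, the fit with no filter and that with the replicate block return the main differences by construction. Other pseudocounts hardly move genes with this many reads. The 4 that turned were NAP1L1 in heavy over light polysomes, at -0.046 without replicate 1 and -0.013 without replicate 3, and PTMA against the median gene. PTMA stood at 0.033 in log2 load with centring on the mean gene. With the light plus heavy share it stood at 0.19, a difference in share and not in log2. Without replicate 2, NAP1L1 in heavy over light was 0.45 and kept its direction. Scaling to library totals gave 7756 genes called in light over monosome, with 8 members higher and 0 lower. It gave 0 members and 1102 of all genes lower in heavy over monosome. DESeq2 called 2952 genes in light over monosome, with 5 members higher. By construction, total scaling moves every gene of a fraction alike, and it moved the median gene to 1.39, 1.22 and 0.13 in heavy over monosome, light over monosome and heavy over light. Leaving out 1 replicate gave 3137 to 7814 genes called in heavy over monosome (3 to 8 members higher, 0 to 1 lower), 562 to 4507 in light over monosome (0 to 4 higher, 0 to 1 lower) and 0 to 7651 in heavy over light (0 to 6 higher, 0 to 1 lower). For MRL it gave 3422 to 7264 genes, with 3 to 7 members higher and 1 lower. In the first 3 comparisons the high ends were without replicate 2 and the members' low ends without replicate 1 or 3; fewer libraries enter each of these fits, and the cause was otherwise not tested. With the replicate block, which is paired by gradient, 6274, 2424 and 4302 genes were called in the 3 fraction comparisons, and no member's call changed. Depth did not limit the members, the lowest of which had 330 reads in a library, while 3 gradients limit every SD.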

Other observations

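Across all genes, the share of acidic codons (aspartate and glutamate) and the ribosome load were described without reference to the members. By rising quintiles of that share, the median MRL was 2.94 ± 0.08, 3.11 ± 0.003, 3.21 ± 0.08, 3.27 ± 0.05 and 3.32 ± 0.03 (mean and SD of 3 gradient medians). Median coding length rose along the same order, from 1084.5 to 1299 nt. Within 601 to 900 nt, the lowest quintile had 2.96 ± 0.21 (454 genes) and the highest 3.27 ± 0.25 (401 genes). Within 901 to 1200 nt the values were 3.04 ± 0.17 (476 genes) and 3.51 ± 0.24 (341 genes), and within 1201 to 1800 nt 3.13 ± 0.08 (617 genes) and 3.67 ± 0.09 (486 genes). Among the shortest of these classes, 301 to 600 nt, they were 2.49 ± 0.15 (395 genes) and 2.61 ± 0.12 (361 genes).

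Genes with an unbroken run of at least 10 acidic codons, such as ANP32B, SET and PTMS, numbered 228, with a median MRL of 3.45 ± 0.14, and 3.43 ± 0.16 over the 223 that are not members, against 3.17 ± 0.01 over all 12688 genes compared. NAP1L1, with 26.6% acidic codons, had a load of 2.38 ± 0.38, so a high share alone did not go with a high load in each member.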
